A study of Vachellia cornigera with 24 samples.

Results

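The genes described here are those of the secretory pathway and of vesicle traffic in the extrafloral nectaries of Acacia cornigera, the organs on the leaf of this plant that secrete sugar to feed resident ants. They were chosen by the wording of each gene's description, without regard to its values: every gene whose description contains syntaxin, SNARE, vesicle, exocyst, coatomer, clathrin, RAB GTPase, ADP-ribosylation factor, disulfide isomerase, calreticulin or calnexin. This gave 131 of the 12650 genes in the table. By role, 5 belong to folding in the endoplasmic reticulum, 17 to the COPI coat and its ADP-ribosylation factors, 23 to the Rab GTPases, 11 to clathrin coats, 45 to SNAREs and proteins described as like them or associated with them, 18 to the exocyst and 12 to other vesicle proteins. The tests took in 128 of them, whose values averaged 10 or more across the 24 libraries. The 3 with lower averages were calreticulin 1b (AT1G09210), an exo70 subunit of the exocyst (AT5G13990) and a vesicle-associated membrane protein (AT2G25340).

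Proteins bound for the cell surface enter the endoplasmic reticulum, are folded there with the help of calnexin, calreticulin and disulfide isomerases, and travel to the Golgi in vesicles. The COPI coat, recruited by ADP-ribosylation factors, returns material from the Golgi to the endoplasmic reticulum, and clathrin with its adaptors coats vesicles of the trans-Golgi network and the plasma membrane. Rab GTPases mark compartments, the exocyst tethers secretory vesicles at the plasma membrane, and SNAREs on vesicle and target drive their fusion. Nectaries are known to release sugar through transporters and, in some plants, by fusion of vesicles with the plasma membrane. Roles named below are those known in Arabidopsis thaliana, whose closest locus labels each acacia gene, so that a label may stand for more than 1 acacia gene, and reads of close copies could have been divided between labels.

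Nectaries were collected from plants in Mexico, and RNA of 24 libraries was sequenced in 10 groups. Each library pools nectaries of different plants, so p-values measure the spread between such pools, and some replicates were lost to quality control. Of the plants sampled by time of day, 3 libraries come from 9 am, 3 from noon, 1 from 2 pm, 3 from 3 pm, 2 from 3 am, titled day 2, and 3 from 8 am, titled control. The other groups perturbed the colonies of the resident mutualist ant, Pseudomyrmex ferrugineus: 3 libraries with the ants removed for 2 days, 3 titled as a Gracilis replacement, 2 with gut contents applied, and 1 with the ants replaced after 2 days, sampled at 9 AM. The labels do not say whose gut contents were applied, nor at which hour the libraries of ants removed, Gracilis and gut contents were taken, so an ant condition and the hour of sampling cannot be told apart in a comparison with 8 am. The 2 pm library and the library of returned ants have no replicate and entered no test.

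The deposited values are normalised counts with totals of 21084266 to 32520511 per library, the highest in the 2 pm library. They are not reads, so the depth behind each value is unknown, and levels of different genes cannot be ranked because gene length is not given. Secretory genes of libraries of the same group differed by a median of 0.29 to 0.406 on the log2 scale at 9 am and 0.272 to 0.36 at 3 pm, against 0.059 to 0.212 in the other groups. The closest pairs were noon samples 1 and 3 and samples 2 and 3 with ants removed, at 0.0601 and 0.059. Whether these are separate pools or technical repeats cannot be told from the values, and counts with each pair averaged are given beside the results they change. Nectary markers, 4 of 6 in the list and none at 0 in every library, had summed values between 224894 and 281261 at 8 am, between 19269 and 21412 at noon and between 10842 and 26949 at 3 pm; sample 3 of 9 am, at the top of the 9 am range of 21974 to 160426, stood apart from samples 1 and 2. This sum rests mostly on SWEET9 (AT2G39060) and CWINV4 (AT2G36190). With the ants removed BOP1 (AT3G57130) and PIN6 (AT1G77110) averaged 150 and 47.33, where the sum was at least 157556. In the F test over times of day given below, SWEET9 and CWINV4 passed (adjusted p = 6.23e-05 and 6.16e-05). BOP1 and PIN6 did not (adjusted p = 0.204 and 0.141). In the F test over ant conditions, CWINV4, BOP1 and PIN6 passed (adjusted p = 9.4e-05, 0.00291 and 0.0042). SWEET9 did not pass there (adjusted p = 0.992). That test gives no direction. In whole nectaries, fewer cells of a type and less RNA per cell cannot be told apart.

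Secretory genes took a larger share of the library at 3 am, at 8 am and under the ant treatments than at midday. Their summed values were 1.04% to 1.16% of the library total in the noon, 2 pm and 3 pm libraries and 1.32% to 1.45% in the 3 am, 8 am and ant-treatment libraries, ranges that do not overlap. The 9 am libraries, at 1.11%, 1.08% and 1.39%, reach into both ranges. A pair of highly expressed genes weighs on this sum: without RABA1D (AT4G18800) and VAMP721 (AT1G04750) the share was 0.915% to 1.02% in the noon, 2 pm and 3 pm libraries and 1.21% to 1.24% in those of 3 am and 8 am, with 0.971%, 0.969% and 1.22% in the 9 am samples. It was 1.1% to 1.15% with the ants removed, with Gracilis and with gut contents, and 1.21% in the library of returned ants. Among the 8 groups with replicates, the 8 am group held the highest mean for 50 of the 128 tested genes, against 16.8% of all genes. Among the 5 times of day it was highest for 69 of 128, against 27% of all genes, and noon was lowest for 45 of 128, against 22.4%. The 9 am group was highest for 0 of 128, against 3.69%, and lowest for 29, against 20.4%. Its libraries had median log2 deviations from the gene means of -0.262, -0.147 and -0.147, against -0.143, -0.056 and -0.095 at noon. Those of all genes were -0.149, 0.011 and -0.212 at 9 am and 0.05, 0.114 and 0.075 at noon. By this median, low levels were not particular to midday. No pairwise test took in 9 am. The ratio of highest to lowest group mean had a median of 1.68 among the tested secretory genes, with 37 genes (28.9%) reaching 2-fold, against a median of 2.1 and 54.1% for all genes tested.

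**Figure D1:**
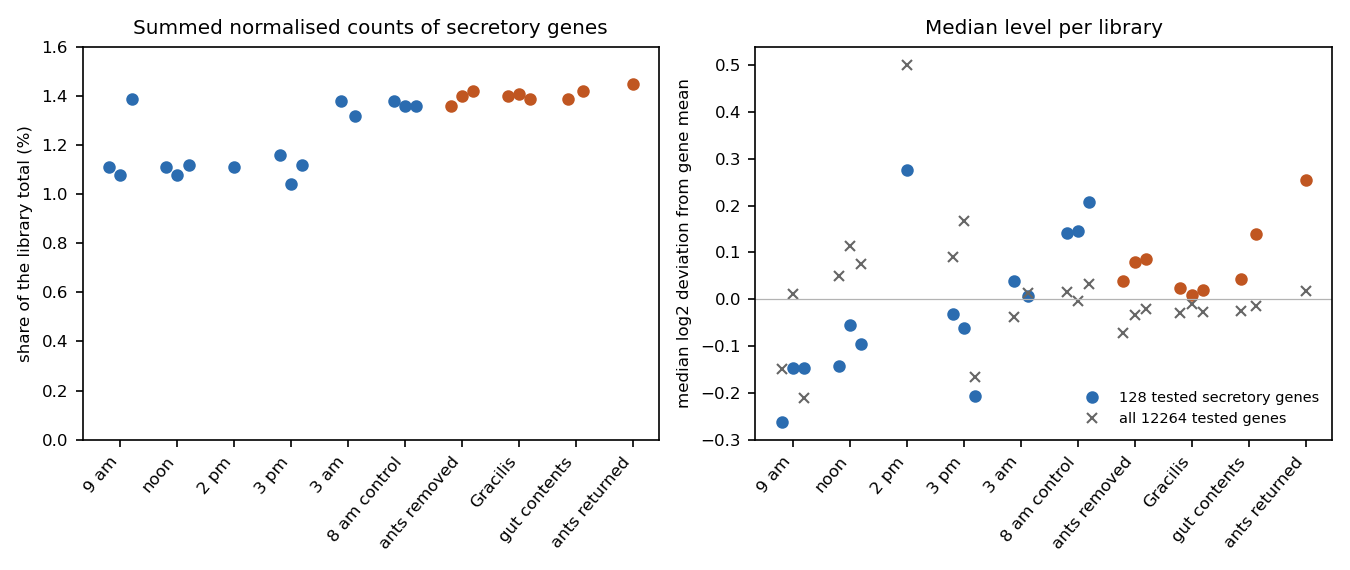
Left, the summed normalised counts of the 131 secretory genes as a percentage of each library's total; right, the median deviation (log2) of the 128 tested secretory genes (circles) and of all 12264 tested genes (crosses) from each gene's mean over the 24 libraries, in blue for times of day and orange for ant treatments. Each point is 1 library; the share lies at 1.04% to 1.16% in the noon, 2 pm and 3 pm libraries and at 1.36% to 1.38% at 8 am.

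The first question was how this machinery differed between times of day. Of the 128 tested genes, 56 passed the F test over 9 am, noon, 3 pm, 3 am and 8 am, or 43.8%, against 39.7% of all genes. The COPI coat and ADP-ribosylation factors gave 11 of 17, the Rab GTPases 10 of 23, the SNAREs 16 of 45 and the exocyst 8 of 17. The smallest p-values belonged to EXO70E1 of the exocyst (AT3G29400, adjusted p = 5.64e-05), the Rab GTPase RABA1D (AT4G18800, adjusted p = 6.9e-05) and the coatomer alpha subunit AT1G62020 (adjusted p = 7.11e-05). With the close pairs averaged 42 secretory genes passed, and without the 8 am libraries 26 did. The share of all genes in those fits is not given here.

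In direction, noon and 3 pm were mostly lower than 8 am. At noon 49 of the 128 genes were lower and 11 higher, whereas 17.7% of all genes were lower and 19.7% higher, 37.4% in all. The median log2 difference of the secretory genes was -0.31, and that of all genes was 0.087. At 3 pm 43 were lower and 9 higher, whereas 19% of all genes were lower and 17.8% higher, 36.8% in all, with medians of -0.27 and 0.004. Groups did not overlap for 91 of the secretory genes at noon (65.7% of all genes) and for 65 at 3 pm (40.8%). With the close pairs averaged, 37 were lower and 8 higher at noon; in a fit of the 3 pm and 8 am libraries alone, 23 were lower and 2 higher. Of the 3 pm calls given below, those of AT2G18390, the AP-3 small subunit, AT2G20790, SYP23 and EXO70A1 did not pass in that fit. These 2 comparisons share the 8 am libraries. The summed nectary markers, which rest mostly on SWEET9 and CWINV4, were also lower at midday than at 8 am, as given above. So were cuticle and epidermis markers, at 4758 to 5120 at noon and 2366 to 6123 at 3 pm against 7308 to 7711. Mesophyll markers were lower too, at 64746 to 67092 and 27903 to 62518 against 72242 to 112010. Phloem markers were lower at noon and guard cell markers higher, and both overlapped 8 am at 3 pm. Xylem markers overlapped 8 am at both times. The part of these markers in the result was not tested.

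**Figure D2:**
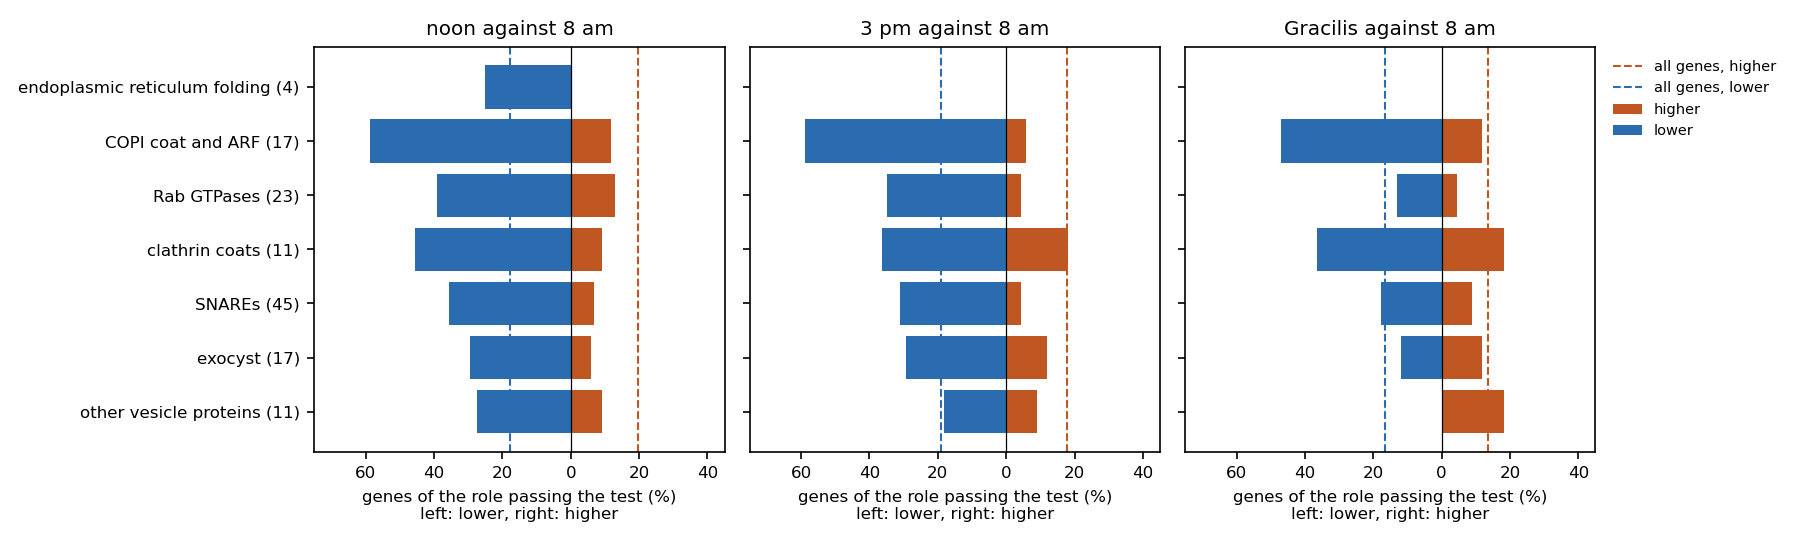
Percentage of the tested genes of each role (number in brackets) that passed the test at an adjusted p under 0.05 against the 8 am control, lower to the left in blue and higher to the right in orange; dashed lines mark the percentages over all genes. In the COPI coat and ADP-ribosylation factors, 10 of 17 were lower at noon, 10 of 17 at 3 pm and 8 of 17 with Gracilis.

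In the endoplasmic reticulum, calnexin 1 (AT5G61790), a membrane-bound chaperone of glycoproteins, read 5169, 5314 and 5496 at noon and 12603, 12827 and 13558 at 8 am. All noon libraries lay below all 8 am libraries, with a log2 difference of -1.29 (standard error 0.31, adjusted p = 0.00393). At 3 pm its libraries ranged from 4762 to 12987 and overlapped those of 8 am (adjusted p = 0.0553). Calreticulin 1a (AT1G56340), the soluble counterpart in the same cycle, read 6751 to 6994 at noon and 9296 to 12157 at 8 am, and did not pass (log2 difference -0.59, adjusted p = 0.0975). Calreticulin 3 (AT1G08450), known for the folding of immune receptors, had values of 2631 to 3226 at noon and 1763 to 1918 at 8 am (0.69, adjusted p = 0.0859). The gene described as a disulfide isomerase (AT3G19220) is known in Arabidopsis as a plastid protein. It read 72 to 119 at noon and 115 to 145 at 8 am, with overlap. Calreticulin 1b stayed between 0 and 44 in all libraries. PDIL1-1 (AT1G21750), a classical disulfide isomerase that is no member by wording, read 7506 to 8071 at noon and 8660 to 13607 at 8 am and did not pass (-0.48, adjusted p = 0.436).

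The coatomer stood out for the number of its subunits that were lower. Of the 8 genes described as coatomer subunits, 7 were lower at noon (median log2 difference -1.02) and 7 at 3 pm (-1.01). The alpha subunit AT1G62020 read 824, 823 and 829 at noon, 846, 971 and 837 at 3 pm, and 1865, 1669 and 1816 at 8 am. Both sets of midday libraries lay below all 8 am libraries, by a log2 difference of -1.11 at noon (standard error 0.15, adjusted p = 4.65e-05) and -1.01 at 3 pm (standard error 0.15, adjusted p = 0.000147). The gamma subunit AT4G34450 showed 3543 to 3834 at noon and 7707 to 8716 at 8 am (-1.16, adjusted p = 0.000685). The epsilon subunit AT1G30630 showed 1755 to 1961 and 3490 to 4463 (-1.06, adjusted p = 0.000895), and the beta subunit AT4G31480 3528 to 3718 and 6616 to 7696 (-0.98, adjusted p = 0.000737). The other called subunits, the second alpha gene AT2G21390 and the beta' genes AT1G52360 and AT3G15980, had differences of -0.83, -0.86 and -0.74 at noon. The remaining gene, described as coatomer subunit beta-2 (AT1G79990), varied from 11 to 1189 over all libraries and did not pass.

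A pair of further genes are known in Arabidopsis as COPI subunits although their descriptions name other families. The gene AT3G09800, described as SNARE-like and known as zeta-COP, read 1639 to 1828 at noon and 4109 to 4401 at 8 am (log2 difference -1.30, standard error 0.25, adjusted p = 0.000646). The gene AT5G05010, described as a clathrin adaptor and known as delta-COP, read 3305 to 3801 at noon and 5042 to 5834 at 8 am (-0.64, standard error 0.13, adjusted p = 0.00134). Neither overlapped. Both were chosen for mention after their values were seen, because of this identity. The alpha and the beta' labels come in pairs of close relatives, between which reads could have been divided.

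**Figure D3:**
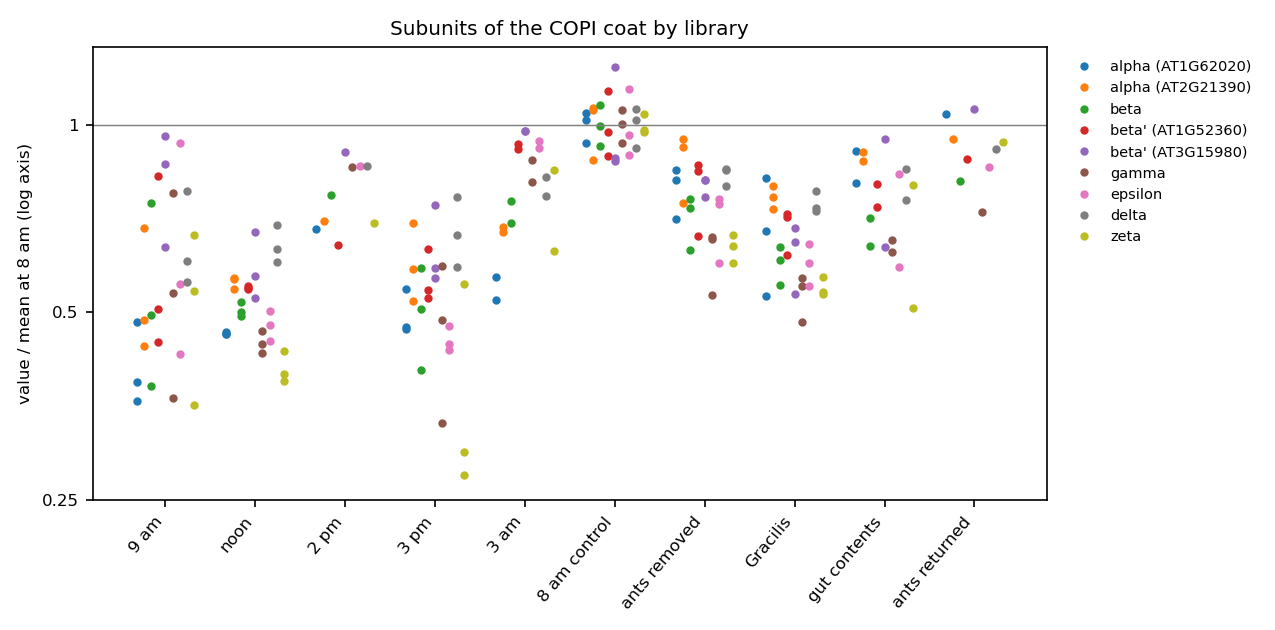
Values of 7 genes described as coatomer subunits and of the genes known as delta-COP and zeta-COP in each library, divided by the gene's mean over the 3 libraries of 8 am (log axis, 1 point per library, colours for genes). For AT1G62020 the 8 am libraries hold 1669 to 1865 and the noon and 3 pm libraries 823 to 971.

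Of the 9 ADP-ribosylation factors and related proteins, 3 were lower and 2 higher at noon. ARFA1E (AT3G62290), of the class that recruits the COPI coat, read 20582, 22261 and 21421 at noon and 41029, 37808 and 43686 at 8 am (log2 difference -0.93, standard error 0.18, adjusted p = 0.000781). The relatives ARF3 (AT2G24765, -0.94, adjusted p = 0.0011) and ARFC1 (AT3G22950, -0.58, adjusted p = 0.00424) were lower as well. In the other direction, AT2G18390, an ARF-like protein known as TITAN5 and needed for embryo division, read 441 to 472 at noon and 204 to 293 at 8 am (0.86, standard error 0.20, adjusted p = 0.00274). It was also higher at 3 pm (0.88, adjusted p = 0.00281).

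Among the Rab GTPases, RABA1D (AT4G18800) had the widest range of group means. RABA1 proteins act in traffic from the trans-Golgi network to the plasma membrane. Its value was 207, 231 and 256 at noon, 748 at 2 pm, 448, 323 and 1501 at 3 pm, 7048 and 2756 at 3 am and 9117, 6388 and 8021 at 8 am. The 9 am libraries held 2378, 769 and 7820, so sample 3 lay within the range of 8 am and samples 1 and 2 below it. Noon was 33.5-fold lower than 8 am (log2 difference -5.07, standard error 0.61, adjusted p = 1.62e-05) and 3 pm was lower by a log2 difference of -3.69 (standard error 0.61, adjusted p = 0.000293), with no overlap in either comparison. Between its highest and lowest group means lay a factor of 100, the largest among the tested secretory genes with counts in every group. VAMP713, given below, had no counts at noon and so has no such ratio.

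In all, 9 Rab GTPases were lower and 3 higher at noon, out of 23. RAB1A (AT5G47200), of the class that serves transport from the endoplasmic reticulum to the Golgi, read 1464, 1428 and 1449 at noon, 974, 1153 and 1296 at 3 pm and 3977, 3487 and 4306 at 8 am. The midday libraries again lay apart from 8 am, with log2 differences of -1.43 at noon (standard error 0.24, adjusted p = 0.000258) and -1.79 at 3 pm (standard error 0.24, adjusted p = 6.02e-05). Its close relative RAB1C (AT4G17530) read 7987 to 9133 at noon and 7567 to 8336 at 8 am and did not pass. RABA2D (AT5G59150), another protein of the trans-Golgi network, read 665 to 709 at noon and 1689 to 2107 at 8 am (-1.50, standard error 0.23, adjusted p = 0.000119). RAB8A (AT3G46060), of the class that acts in post-Golgi secretion, read 3907 to 4304 and 6259 to 7112 (-0.70, standard error 0.11, adjusted p = 0.000196). Higher at noon were RABC2A (AT5G03530, 0.75, adjusted p = 0.00355) and RAB18 (AT1G43890, 0.61, adjusted p = 0.00717), along with the RABA1I-like gene AT1G18200 (0.81, adjusted p = 0.0288, lost in 5 of 14 alternative fits). The gene described as RAB GTPase homolog E1B (AT4G20360), also known in Arabidopsis as a plastid elongation factor, did not pass.

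In the clathrin coats, the medium subunit AT1G60780 of the AP-1 adaptor, which works at the trans-Golgi network, read 1566, 1626 and 1686 at noon, 1850, 1652 and 1333 at 3 pm, and 4250, 3630 and 4353 at 8 am. The log2 differences were -1.32 at noon (standard error 0.22, adjusted p = 0.000202) and -1.35 at 3 pm (standard error 0.22, adjusted p = 0.000213). The clathrin light chain AT2G40060 read 6089 to 6819 at noon and 11065 to 13353 at 8 am (-0.88, standard error 0.19, adjusted p = 0.00157). The clathrin heavy chain AT3G08530, which forms the cage with it, read 9416 to 10029 at noon and 11391 to 14927 at 8 am and did not pass. The medium subunit of the endocytic adaptor AP-2 (AT5G46630) was lower at noon (-0.57, adjusted p = 0.0233, lost in 5 of 14), and the small subunit AT3G50860 of AP-3, an adaptor for traffic to the vacuole, was higher at noon (0.62, adjusted p = 0.0469, lost in 7 of 14 alternative fits) and at 3 pm (0.80, adjusted p = 0.0137). A further adaptor medium subunit, AT2G20790, was higher at 3 pm (0.49, adjusted p = 0.00599). The epsin-like clathrin assembly protein AT2G25430 read 5153 to 5728 at noon and 6380 to 8047 at 8 am and did not pass (adjusted p = 0.091).

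Of the 45 genes grouped with the SNAREs, 16 were lower and 3 higher at noon. The syntaxin SYP71 (AT3G09740) read 2149, 2420 and 2339 at noon, 2556, 2513 and 2567 at 3 pm and 5339, 4674 and 5496 at 8 am, without overlap. Its log2 difference was -1.17 at noon (standard error 0.16, adjusted p = 4.34e-05) and -1.02 at 3 pm (standard error 0.16, adjusted p = 0.000183). The syntaxin-family gene AT2G18860 read 1641 to 1833 at noon, 666 to 1532 at 3 pm and 3820 to 6109 at 8 am (-1.57 at noon, adjusted p = 0.0116). A protein of the SNARE-associated Golgi family, AT1G22850, read 253 to 336 at noon and 777 to 917 at 8 am (-1.57, adjusted p = 8.8e-05); the proteins of this family are not SNAREs.

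The syntaxin SYP23 (AT4G17730), of the group that acts at prevacuolar and vacuolar membranes, went the other way. It read 1706, 2044 and 1807 at noon, 1023, 2258 and 1991 at 3 pm, and 781, 844 and 796 at 8 am. The lowest midday library still lay above the highest of 8 am, with a log2 difference of 1.19 at noon (standard error 0.28, adjusted p = 0.00323) and 1.04 at 3 pm (standard error 0.28, adjusted p = 0.00827). A second gene of the SNARE-associated Golgi family, AT4G17790, was higher at noon (1.12, adjusted p = 0.00487). The vacuolar syntaxin-family gene AT5G46860 was lower at noon (-0.48, adjusted p = 0.00675). The plasma membrane syntaxin SYP121 (AT3G11820), known for secretion in defence, read 1044 to 1126 at noon and 780 to 1262 at 8 am, with overlap. SNAP33 (AT5G61210), its partner, is not a member by wording and was lower at noon (-0.67, adjusted p = 0.0101). SYP122, VAMP722 and the clathrin heavy chain CHC1 were looked for and had no entry among the genes of the series.

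In the exocyst, 5 of 17 tested genes were lower and 1 higher at noon. The higher one was EXO70E1 (AT3G29400), which read 1324, 1606 and 1393 at noon, 1716 at 2 pm, 1232, 1989 and 1454 at 3 pm, 684 and 769 at 3 am and 497, 584 and 652 at 8 am. The midday libraries lay above all those of 8 am and 3 am. The log2 difference from 8 am was 1.32 at noon (standard error 0.18, adjusted p = 3.34e-05) and 1.41 at 3 pm (standard error 0.18, adjusted p = 2.91e-05). Its relative EXO70H2 (AT2G39380) read 2571, 2329 and 2630 at noon and 18053, 10319 and 8047 at 8 am (-2.19, standard error 0.62, adjusted p = 0.00999). EXO70H4 (AT3G09520), known for wall deposition in leaf hairs, read 26, 14 and 26 at noon and 2513, 1162 and 897 at 8 am (-5.96, standard error 1.05, adjusted p = 0.000381). The core subunit SEC15B (AT4G02350) read 1810 to 2172 at noon and 3182 to 3863 at 8 am (-0.89, adjusted p = 0.00103). EXO70A1 (AT5G03540), the form used in general exocytosis, read 1569 to 1632 and 1848 to 2380; it passed at 3 pm (-0.69, adjusted p = 0.0182) and not at noon (adjusted p = 0.163). SEC6 (AT1G71820), a core subunit whose description lacks the wording, was lower at noon (-0.61, adjusted p = 0.0473, lost in 6 of 14 alternative fits).

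Of the other vesicle proteins, the bridging protein VAP1-4 (AT1G51270) read 2453 to 2658 at noon and 4996 to 5749 at 8 am (-1.06, standard error 0.18, adjusted p = 0.000299). VAMP711 (AT4G32150), a vacuolar SNARE, read 936, 933 and 933 at noon and 1699, 1474 and 1668 at 8 am (-0.79, standard error 0.12, adjusted p = 0.000146). VAMP714 (AT5G22360) was higher at noon (0.49, adjusted p = 0.0136) and at 3 pm (0.66, adjusted p = 0.00224). VAMP713 (AT5G11150) was listed at 0 in all 3 noon libraries and in both 3 am libraries, and at 59, 40 and 54 at 8 am. VAMP721 (AT1G04750), the SNARE of secretory vesicles, read 23995 to 28615 at noon and 21395 to 28173 at 8 am, which overlap. VAMP727 (AT3G54300), a SNARE of traffic to the vacuole, read 3385 to 3882 at noon and 2892 to 3172 at 8 am and did not pass (adjusted p = 0.191).

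**Figure D4:**
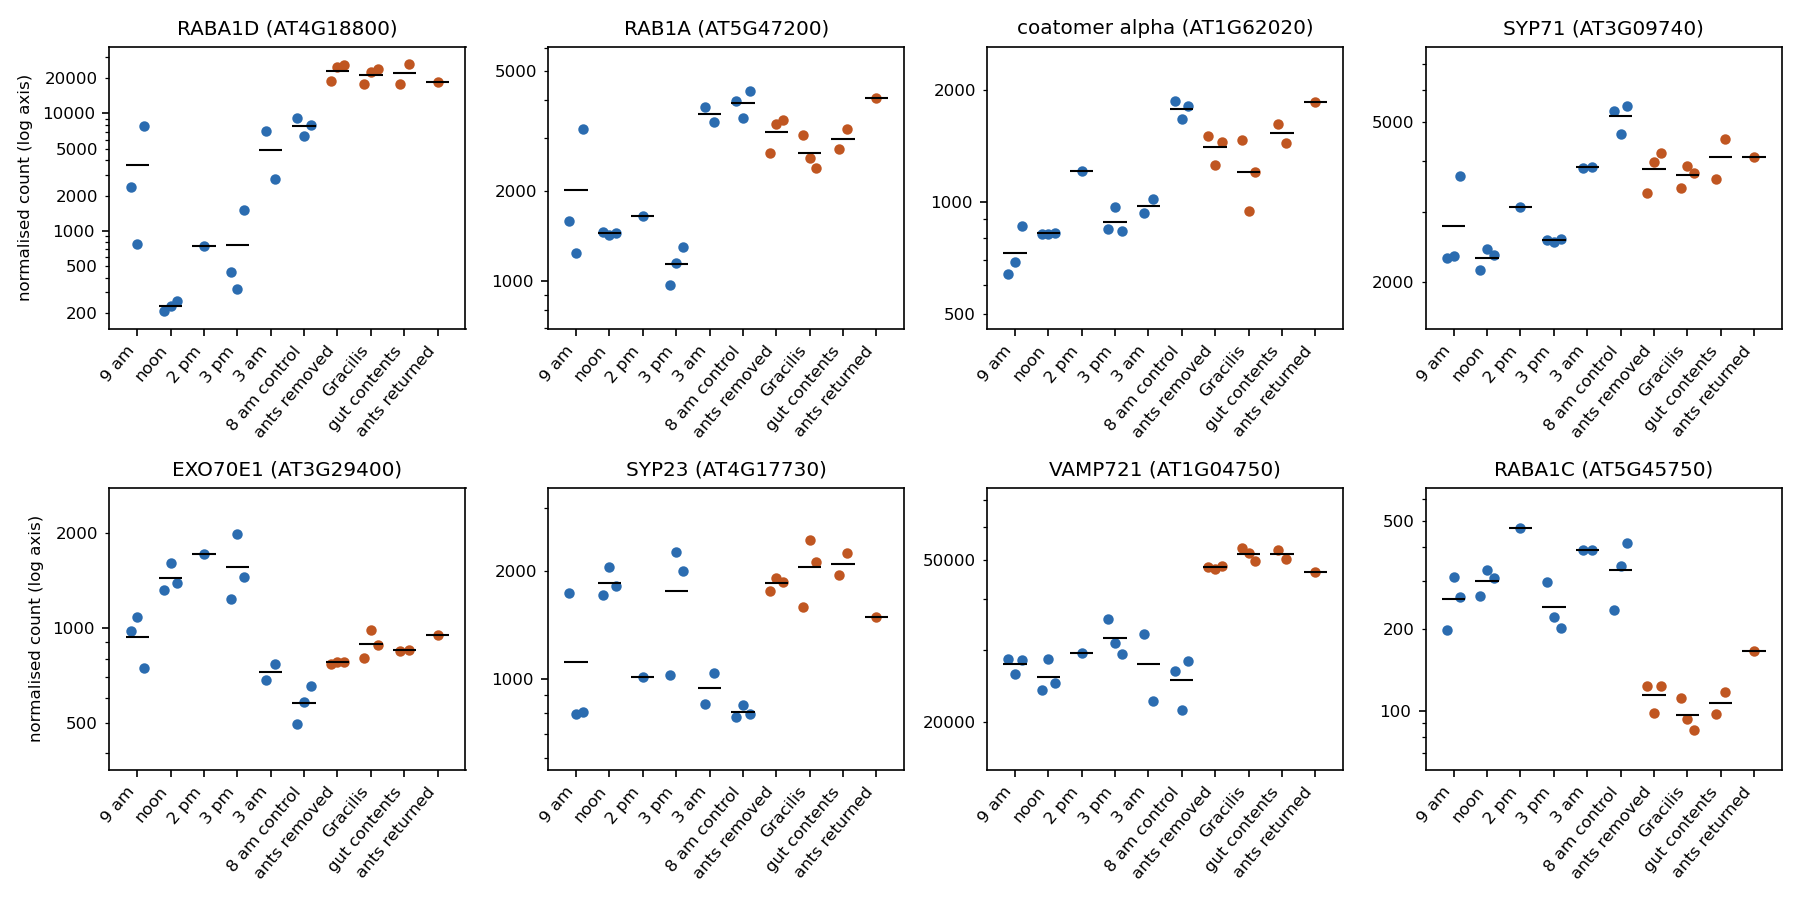
Normalised counts (log axes) of 8 secretory genes in all 24 libraries, in blue for times of day and orange for ant treatments; points are libraries and bars are group means. RABA1D lies at 207 to 256 at noon and at 6388 to 9117 at 8 am, and VAMP721 lies at 47561 to 53544 with the ants removed, with Gracilis and with gut contents, above all libraries by time of day.

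Night and morning differed little by this test. Between 3 am and 8 am 1 of the 128 genes was called, and it was lower at 3 am, against 0.832% of all genes called and 0.563% called lower. The groups did not overlap for 56 of the 128 and for 34.8% of all genes. It was the coatomer alpha subunit AT1G62020, at 935 and 1018 at 3 am and 1669 to 1865 at 8 am (log2 difference -0.87, standard error 0.17, adjusted p = 0.0245). Without any single library of either group, or with the close pairs averaged, 0 genes were called. At an unadjusted p under 0.05 the count was 15 of 128, a share near that of all genes, at 1415 of 12264. A fit without the 9 am and 3 pm libraries, whose replicates differ most, called 11 secretory genes, of which 9 were lower at 3 am. This fit was chosen after the data were seen, and its share of all genes is not given here. A missed call in this comparison thus does not show equal levels.

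Compared with 3 pm, 3 am had 22 secretory genes higher and 8 lower, whereas 10.3% of all genes were higher and 9.26% lower, 19.6% in all. Groups did not overlap for 56, against 41.1% of all genes. The nectary markers summed to 89519 and 171213 in the 3 am libraries, also above 3 pm, and their part in the result was not tested. RAB1A (AT5G47200) read 3812 and 3403 at 3 am, above all 3 pm libraries (log2 difference 1.67, standard error 0.27, adjusted p = 0.00185). The coatomer epsilon subunit AT1G30630 read 3584 and 3687 against 1857, 1697 and 1736 (1.04, standard error 0.23, adjusted p = 0.00771), and 3 of the 8 coatomer genes were higher. RABA1D was higher (2.87, adjusted p = 0.0103), as was the cell plate SNARE NPSN11 (AT2G35190), with 408 and 400 against 102, 127 and 20 (2.64, adjusted p = 0.0119). EXO70E1 was lower (-1.07, adjusted p = 0.00309), and so was the syntaxin SYP51 (AT1G16240, -0.50, adjusted p = 0.0141). Also lower were EXO70E2 (AT5G61010), with 133 and 221 at 3 am against 267 to 395 at 3 pm (adjusted p = 0.0252), EXO70F1 (AT5G50380, -0.53, adjusted p = 0.0263) and the SNARE-associated protein AT1G79070 (-1.18, adjusted p = 0.0274). These counts rest on few libraries: without 3 am sample 1 the number of called genes was 2 rather than 30, without 3 am sample 2 it was 6, and in a fit of these groups alone it was 0, so that none of the calls named here passed in that fit.

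The second question was how disturbance of the ants went with the same genes. The F test over 8 am, ants removed, Gracilis and gut contents called 23 of 128 genes, or 18%, against 22.3% of all genes. Against 8 am, 8 genes were higher and 15 lower with the ants removed (11.6% and 15.9% of all genes, 27.5% together), 13 higher and 25 lower with Gracilis (13.7% and 16.7%, 30.4% together), and 9 higher and 12 lower with gut contents (9.12% and 12.9%, 22% together). As shares of the 128 genes, those called higher were 6.25%, 10.2% and 7.03% and those called lower 11.7%, 19.5% and 9.38%. With Gracilis the total of 29.7% was close to that of all genes. Groups did not overlap for 69, 72 and 74 of the 128 genes, against 53.2%, 54.3% and 57.3% of all genes. All 3 comparisons share the 8 am libraries.

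These counts moved with single libraries and with the estimate of the spread. The F test called 12, 7 and 10 genes without 8 am samples 1, 2 and 3, 13 without Gracilis sample 2 and 13 with the close pairs averaged. For ants removed the count of 23 became 13 without 8 am sample 2, 14 without 8 am sample 3, 13 and 14 without its own samples 1 and 2, and 12 with the pairs averaged. For Gracilis the count of 38 became 25 and 24 without 8 am samples 2 and 3 and 18 without Gracilis sample 2. For gut contents the count of 21 became 8 and 13 without 8 am samples 2 and 3, 5 and 11 without its samples 1 and 2, and 13 with the pairs averaged. Summed markers of phloem, xylem and mesophyll were lower than at 8 am in these groups. The sum of 3 phloem genes was 12674 to 14162 against 29369 to 39289. That of 5 xylem genes was 1816 to 2590 against 7171 to 16115, and that of 2 mesophyll genes 24801 to 41161 against 72242 to 112010. The genes of a list did not all pass the F test over ant conditions. No phloem gene passed (adjusted p = 0.0626, 0.0772 and 0.333). Of the xylem genes XCP1 did not pass (adjusted p = 0.994) and the others did (0.000103 to 0.000577). Of the mesophyll genes RBCS1A passed (adjusted p = 0.0276) and LHCA1 did not (0.052). Guard cell markers, at 1007 to 1681 against 1463 to 2013, overlapped 8 am. So did cuticle and epidermis markers, at 5961 to 10415 against 7308 to 7711. Nectary markers, at 224894 to 281261 at 8 am, overlapped with the ants removed (157556 to 303046) and with gut contents (185787 to 306612). With Gracilis, at 168462 to 205957, they lay below 8 am. Their part in the results was not tested.

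VAMP721 (AT1G04750), a SNARE that Arabidopsis uses on vesicles bound for the plasma membrane, was higher in all 3 groups. It read 47913, 47561 and 48231 with the ants removed, 53544, 51847 and 49656 with Gracilis, 52808 and 50234 with gut contents and 46583 with returned ants. At 8 am it read 26633, 21395 and 28173, and no library taken by time of day exceeded 35815, so the groups do not overlap. The log2 differences from 8 am were 0.93 with the ants removed (standard error 0.17, adjusted p = 0.000796), 1.03 with Gracilis (standard error 0.17, adjusted p = 0.000312) and 1.03 with gut contents (standard error 0.19, adjusted p = 0.00118). The gene passed in every alternative fit of these 3 comparisons.

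RABA1D (AT4G18800) reached its highest values in the same groups, at 18970, 24873 and 25577 with the ants removed, 17639, 22487 and 24014 with Gracilis, 17812 and 26236 with gut contents and 18374 with returned ants. All of these lie above the highest 8 am library at 9117. It did not pass the test, at log2 differences of 1.56 (adjusted p = 0.0665), 1.45 (adjusted p = 0.0821) and 1.48 (adjusted p = 0.131), with standard errors of 0.61, 0.61 and 0.69. Its relative RABA1C (AT5G45750) read 123, 98 and 123 with the ants removed, 111, 93 and 85 with Gracilis, 97 and 117 with gut contents, and 235, 341 and 414 at 8 am. RABA1C was thus lower in every treated library, with log2 differences of -1.49, -1.74 and -1.58 and adjusted p of 0.000303, 0.000103 and 0.000639. RABE1E (AT3G09900), of the RAB8 class, was low in all groups and lower with the ants removed, at 51, 31 and 32 against 95, 143 and 82 (-1.46, adjusted p = 0.00214), as it was with gut contents (-1.34, adjusted p = 0.0102) and Gracilis (-1.04, adjusted p = 0.0158); the last call was lost in 4 of 14 alternative fits.

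The syntaxin SYP23 (AT4G17730) read 1760, 1912 and 1855 with the ants removed, 1589, 2429 and 2110 with Gracilis, and 1949 and 2235 with gut contents, all above the 781 to 844 of 8 am. Its log2 differences were 1.19 (adjusted p = 0.0049), 1.32 (adjusted p = 0.00222) and 1.37 (adjusted p = 0.00544). SYP51 (AT1G16240) and the vacuolar syntaxin-family gene AT5G46860, which act in the same late endosomal and vacuolar pathway in Arabidopsis, were higher by log2 differences of 0.35 and 0.42 with the ants removed (adjusted p = 0.0331 and 0.021) and by 0.45 each with Gracilis (adjusted p = 0.00762 and 0.0135). With the ants removed, the call of SYP51 was lost in 8 of 14 alternative fits and that of AT5G46860 in 5 of 14; with Gracilis they were lost in 1 and 2 of 14. In contrast the Golgi syntaxin SYP31 (AT5G05760) read 659, 675 and 671 with the ants removed and 966, 1042 and 1187 at 8 am (-0.67, standard error 0.14, adjusted p = 0.00263), and was lower with Gracilis (-0.81, adjusted p = 0.000573) and gut contents (-0.75, adjusted p = 0.00354). AT1G22850 of the SNARE-associated Golgi family read 394 to 413 with the ants removed (-1.09, adjusted p = 0.0025), and AT1G51160, described as SNARE-like and known as a subunit of the TRAPP tether, read 239 to 386 against 518 to 730 (-1.07, adjusted p = 0.00309).

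NPSN11 (AT2G35190), a SNARE of the cell plate where dividing cells build their new wall, read 90, 110 and 119 with the ants removed and 81, 59 and 86 with Gracilis, against 377, 469 and 391 at 8 am. These groups do not overlap (log2 difference -1.95, standard error 0.58, adjusted p = 0.0196 with the ants removed, and -2.45, standard error 0.58, adjusted p = 0.00462 with Gracilis). With gut contents, at 91 and 121, it passed as well (-1.96, adjusted p = 0.0391). The Gracilis call held in every alternative fit, whereas that with the ants removed was lost in 4 of 14 and that with gut contents in 6 of 13, among them each fit without 1 library. The cytokinesis syntaxin KNOLLE (SYP111, AT1G08560) read 5 and 6 with gut contents, 10, 30 and 11 with Gracilis, 33, 31 and 68 with the ants removed and 37, 86 and 46 at 8 am. It passed with gut contents (-3.05, standard error 0.66, adjusted p = 0.00367) and Gracilis (-1.75, standard error 0.59, adjusted p = 0.0313), and with the ants removed its values overlapped those of 8 am. Its Gracilis call was lost in 4 of 14 alternative fits.

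In the coats, the medium subunit AT4G24550 of AP-4, an adaptor of the trans-Golgi network, read 6768, 5725 and 6095 with the ants removed, 6853, 7201 and 6114 with Gracilis, 5868 and 6581 with gut contents, and 4074, 3890 and 3784 at 8 am. It was higher in all 3 groups, by log2 differences of 0.66, 0.78 and 0.67 (adjusted p = 0.00524, 0.00157 and 0.0123). The AP-3 small subunit AT3G50860 was higher too (0.83, 0.85 and 0.78, adjusted p = 0.0155, 0.012 and 0.0425). With gut contents the call of AP-3 was lost in 7 of 13 alternative fits and that of AP-4 in 3 of 13. Of the 8 coatomer genes, 1 was lower with the ants removed, 6 with Gracilis and 0 with gut contents, with median log2 differences of -0.42, -0.70 and -0.44; the difference between the treated groups was tested for Gracilis against ants removed only, as given below. The gamma subunit AT4G34450 read 4384, 5406 and 5446 with the ants removed (-0.70, standard error 0.22, adjusted p = 0.0256, lost in 6 of 14 alternative fits) and 4534, 3973 and 4672 with Gracilis (-0.91, standard error 0.22, adjusted p = 0.00536). ARFA1F (AT1G10630) read 191, 312 and 323 with the ants removed against 729, 673 and 629 at 8 am (-1.33, standard error 0.35, adjusted p = 0.009).

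The exocyst gave SEC10 (AT5G12370), a core subunit, at 2479, 2732 and 2621 with the ants removed, 2535, 2498 and 2543 with Gracilis, 3018 and 2536 with gut contents and 1992, 1719 and 1848 at 8 am. It was higher in each, with log2 differences of 0.50, 0.45 and 0.58 (adjusted p = 0.00424, 0.00722 and 0.00432). The core subunits SEC5 (AT1G76850) and SEC3A (AT1G47550) did not pass. EXO70H2 and EXO70H4 varied widely within the treated groups: EXO70H4 read 1825, 85 and 957 with Gracilis and 2759 and 193 with gut contents, and EXO70H2 read 13428, 2825 and 11142 and then 16651 and 3995. Within these groups both genes were thus lowest in Gracilis sample 2 and in gut contents sample 2. Neither passed against 8 am in these groups.

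The last comparison set Gracilis against removal of the ants. By limma 0 of the 128 genes were called, and 0% of all genes were. At an unadjusted p under 0.05 there were 76 genes, of which 1 was a secretory gene, KNOLLE (AT1G08560), at a log2 difference of -1.40 (standard error 0.59, adjusted p = 1). Groups did not overlap for 19 of the 128 genes, against 5.85% of all genes. The 8 coatomer genes had a median log2 difference of -0.22, with 0 called.

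The library of returned ants had no replicate. Its VAMP721 at 46583, RABA1D at 18374 and SYP23 at 1489 lay outside the range of 8 am, on the side of the other ant treatments. This library was sampled at 9 AM, so the hour and the return of the ants cannot be told apart in a comparison with 8 am. Its VAMP721 and RABA1D also lay above all 9 am libraries. Its SYP23 lay within the 3 pm range given above, and the 9 am values of SYP23 are not given here. RABA1C (AT5G45750) at 166 lay between 85 to 123 in the other treated libraries and 235 to 414 at 8 am. The coatomer alpha subunit AT1G62020 at 1859 lay within the 8 am range, and the gamma subunit AT4G34450 at 5961 below it. The 2 pm library held RABA1D at 748 and EXO70E1 at 1716, both within the range of 3 pm, and RAB1A at 1647, above all noon and 3 pm libraries and below all of 8 am. It had calnexin 1 at 19659 and calreticulin 1a at 16669, the highest of all 24 libraries. The 2 pm library also had the highest total and was highest of the 24 for 30.2% of all genes. The part of the total in its values was not tested.

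Other genes of the pathway, chosen by function rather than wording, were also lower more often than higher at noon. Of 86 listed Arabidopsis genes for entry into the endoplasmic reticulum, glycosylation, chaperones, the COPII coat, retrieval receptors, exchange factors and partners of SNAREs, 60 were tested. At noon 19 were lower and 2 higher than at 8 am, and at 3 pm 13 and 2; the lower ones make 31.7% and 21.7% of the list, against 17.7% and 19% of all genes. With the ants removed 7 were lower and 0 higher, with Gracilis 11 and 0, and with gut contents 3 and 1. The lower ones make 11.7%, 18.3% and 5%, near or under the 15.9%, 16.7% and 12.9% of all genes. The gene AT4G02080, a SAR1 GTPase of the class that starts the COPII coat, read 521, 575 and 601 at noon and 1789, 1883 and 2041 at 8 am (log2 difference -1.75, standard error 0.24, adjusted p = 4.38e-05), and 801 to 1015 with the ants removed (-1.07, adjusted p = 0.00336). Other small GTPases of the COPII list did not follow it. AT1G56330, described as secretion-associated RAS 1B, read 3553 to 3964 at noon and 3636 to 4469 at 8 am, with overlap. AT3G62560, described as Ras-related, read 466 to 506 at noon, above the 292 to 347 of 8 am. The SecY-family protein AT2G34250, a subunit of the channel into the endoplasmic reticulum, read 4470 to 4836 at noon and 9918 to 11178 at 8 am (-1.18, adjusted p = 7.73e-05). The Sec61-beta subunit AT5G60460 of this channel went the other way. It read 1048 to 1233 at noon, 1089 to 3206 at 3 pm and 429 to 679 at 8 am, without overlap. It passed the F test over times of day (adjusted p = 0.0465) but was not called higher at noon. The COPII coat protein AT5G43670 of the Sec23/Sec24 family read 446 to 507 at noon and 1901 to 3186 at 8 am (-2.37, adjusted p = 0.00152). The ER lumenal Hsp70 AT5G28540, a BiP chaperone, read 2368 to 2794 and 8018 to 9668 (-1.74, adjusted p = 0.0152). Of the 12 chaperones and stress sensors tested, 6 were lower and 1 higher at noon, and both retrieval receptors were lower.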

How the data were processed

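Libraries of the TruSeq RNA v2 kit were sequenced by the submitters, per the labels. The deposited score values are normalised counts, scaled and rounded to whole numbers by the authors, per the file headers and the values. They are not read counts. The method of scaling, the aligner and the assembly were not given in the sources used here. Values were analysed as log2(value + 1) with limma 3.58.1 in R 4.3.3, using a mean-variance trend, 1 coefficient for each of the 10 groups and all 24 libraries. Genes with a mean of at least 10 were tested (12264), 2-sided, with Benjamini-Hochberg adjustment over all of them and a threshold of 0.05. Fold changes on this scale understate those of low genes. The fit was tested on simulated data. Groups with 1 library helped no estimate of the spread.

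The genes and lists were chosen with earlier results of these data known. Named genes are, for each comparison, up to 6 higher and 6 lower genes that passed and had groups without overlap, by smallest p, the 12 and 6 smallest p of the F tests over times and ant conditions, the 3 highest means per role, and fixed genes of the pathway. Others that are named, among them EXO70H4, VAMP713, RABA1I, ARF3, ARFC1, SEC5, SEC3A, the AP-2 medium subunit and several coatomer genes, were chosen after their values were seen.

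Sample numbers were taken to pair libraries where at least 3 pairs existed and each correlated above 0.1, which held for Gracilis against ants removed (3 pairs, correlation 0.22 to 0.514). Comparisons with 2 pairs could not meet this, although 3 am and gut contents against 8 am had correlations of 0.103 to 0.288 and 0.104 to 0.314. In the paired comparison, with the number as a block 0 secretory genes were called there, as without it. Alternatives were another pseudocount, no filter, median-of-ratios scaling, the compared groups alone, the block, averaged close pairs and leaving out libraries. No genome was used, so no positions or sequences are given.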

Additional observations from a re-analysis of the deposited data

Results flagged for a closer look

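The 2 pm library, which has no replicate and entered no comparison, held 5 of the 128 tested secretory genes at 1.5-fold or more above the highest of the other 23 libraries, against 3.49% of all genes tested. The 2 shares are close, so by this count the secretory genes did not stand out from all genes. EXO70B1 (AT5G58430), an exocyst subunit known in Arabidopsis for traffic linked to autophagy, read 9810 at 2 pm and 1611 to 4624 elsewhere, a ratio of 2.12 to the next highest library. The syntaxin-family gene AT1G27700 read 1038 at 2 pm and 204 to 551 elsewhere, a ratio of 1.88. The exocyst subunit SEC15A (AT3G56640) read 1218 and elsewhere 298 to 733, a ratio of 1.66. The exocyst component-like gene AT1G10180 read 1560 and elsewhere 424 to 980, a ratio of 1.59. Calreticulin 3 (AT1G08450) read 7132 and elsewhere 1505 to 4700, a ratio of 1.52. This library also had the highest total of normalised counts, 32520511, and the highest value of all 24 libraries for 35 of the 128 genes and for 30.2% of all genes; the part of the total in these ratios was not tested.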

How the results depend on the processing

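Of 190 called differences of 63 named genes, 85 passed in every alternative run, 105 were lost in at least 1 and 0 reversed. Over times of day, 56 secretory genes became 26 without the 8 am group, and 46 to 65 without single libraries. Over ant conditions, 23 became 39 with those groups alone, 13 with close pairs averaged and 7 to 22 without single libraries. Without single libraries the counts were 45 to 56 at noon, 47 to 56 at 3 pm, 0 for 3 am against 8 am, 2 to 41 for 3 am against 3 pm, 13 to 18 with ants removed, 18 to 29 with Gracilis, 5 to 16 with gut contents and 0 for Gracilis against ants removed. With the compared groups alone they were 25 at 3 pm, 0 for 3 am against 3 pm and 39 with ants removed; with pairs averaged, 0 for 3 am against 8 am, 12 with ants removed and 13 with gut contents. Fits chosen after the data were seen gave, without the 9 am libraries, 35 over ant conditions and 3 for 3 am against 8 am, and without 9 am and 3 pm, 52, 11, 46 with ants removed, 63 with Gracilis and 43 with gut contents. With a replicate block on the number in the sample's title, where apart from Gracilis against ants removed the libraries share only a number, counts were 34 over times, 38 over ant conditions, 73 at noon, 17 at 3 pm, 1 for 3 am against 8 am, 4 for 3 am against 3 pm, 24 with ants removed, 44 with Gracilis, 11 with gut contents and 0 for Gracilis against ants removed. Counts from alternative fits, here and above, are of secretory genes alone and lack the share of all genes in each fit. Whether a shift goes beyond that of all genes cannot be told from them. The cause of these shifts was not tested. Read depth is unknown, so no counting error is given.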
